A study of Mus musculus with 23 samples.

Results

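Brain endothelial cells line the cerebral vessels, and 10 genes that mark them were followed in the hippocampus of middle-aged and young mice: Cldn5, Cdh5, Pecam1, Flt1, Kdr, Tek, Tie1, Eng, Abcb1a and Itm2a. The members were chosen by name, as all probe sets whose platform annotation symbol was 1 of these genes, which gave 12 of the 12488 probe sets of the array, with 2 each for Flt1 and Tie1. The 23 arrays each held hippocampal RNA of a different male C57BL/6JNIA mouse, with 14 middle-aged mice of 15 months and 9 young mice of 2 months. Both ages shared training in the Morris water maze, in which mice learn to swim to a platform, and no untrained mice were analysed here. The labels give no handling order. Their running numbers, whose meaning is not stated, do not overlap between the ages, so any order they follow cannot be told apart from age. The comparison of the ages asks how the hippocampal transcript profile of middle-aged mice differs from that of young mice. Values are signals on a linear scale made by MAS5, the Affymetrix summary of a probe set, and the age comparison was made on log2(signal + 16).

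The endothelium of the brain differs from that of other organs in that tight junctions seal its cells to each other and efflux pumps return many compounds to the blood, which together form the blood-brain barrier. Vascular endothelial growth factor (VEGF) acts on endothelial cells through the receptor kinases Flt1 and Kdr, and the angiopoietins act through Tek, with Tie1 as its partner. Cldn5 forms the tight junction strands, Cdh5 (VE-cadherin) the adherens junctions, and Pecam1 (CD31) is an adhesion molecule of the contact between endothelial cells that platelets and leukocytes also carry. Eng (endoglin) is a co-receptor for ligands of the transforming growth factor beta family, Abcb1a is a P-glycoprotein efflux pump, and Itm2a is a membrane protein that is abundant in brain endothelium and is also found in other cells. In whole tissue, fewer endothelial cells and less RNA per cell cannot be told apart.

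None of the 10 genes passed the test between the ages, and Cdh5 came closest. Of the 12 probe sets 11, covering all 10 genes, were bright enough to be tested, with a mean log2 value above that of a signal of 91.7, and 0 passed the limma test at a false discovery rate of 0.05, against 0.376% of the 7453 probe sets tested (0.335% higher and 0.0403% lower at 15 months). The Mann-Whitney test also called 0 of the 11, against 0.349% of all (0.242% higher and 0.107% lower). At an unadjusted p under 0.05 limma gave 1 of the 11, higher at 15 months, against 12.4% of all (5.89% higher and 6.51% lower). The Mann-Whitney test gave the same 1, against 12.0% of all (5.55% higher and 6.4% lower). It was the probe set for Cdh5. The median log2 difference, 15 months minus 2 months, was 0.02 over the 11 probe sets and -0.02 over all tested ones, and the median size of the difference was 0.14 and 0.09. Whether these sizes differ was not tested. Kdr, Tek and Tie1 (161184_f_at) lay near the signal filter, with SE of 0.19, 0.15 and 0.15. For every one of the 12 probe sets the signals of the 2 ages overlapped. The share of all tested probe sets that overlap is not given here, so this count is a description only. On the array of 15-month replicate 13 the 25th percentile of signals was 53.6, against 30.3 to 41.9 on the other arrays, and its median correlation with them was 0.947, the lowest of the 23. Without this array, too, no member passed.

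**Figure D1:**
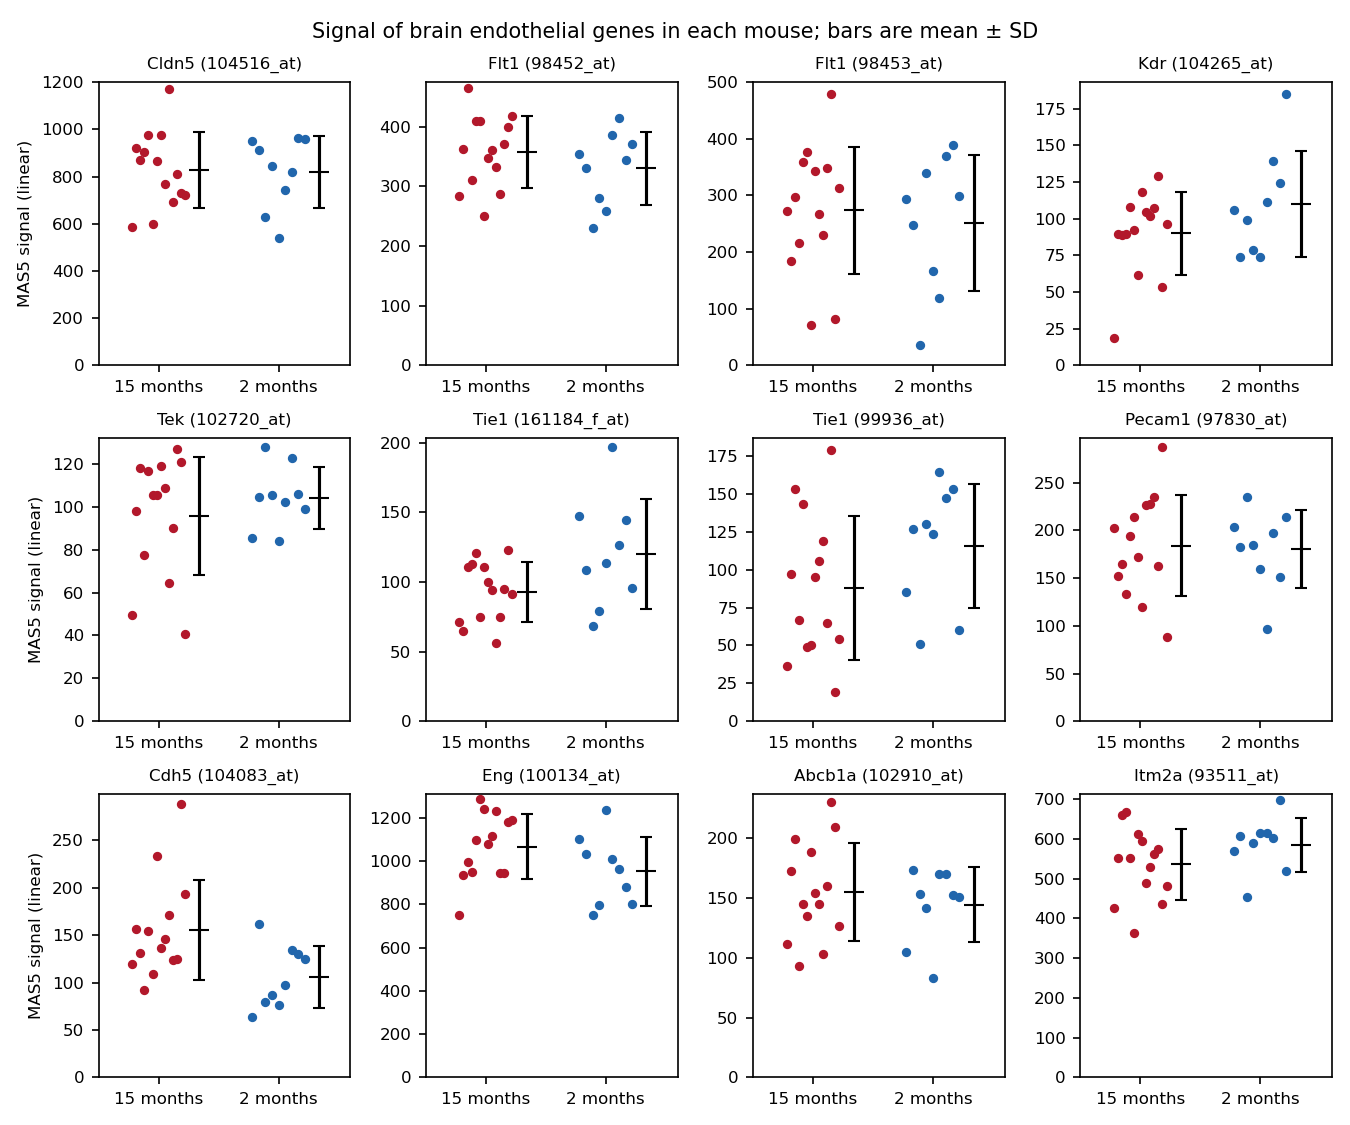
Each panel plots the MAS5 signal (linear, vertical axis from 0) of 1 endothelial probe set in the 14 mice of 15 months (red) and the 9 mice of 2 months (blue), with the mean ± SD as a black bar. The ages overlap in all 12 panels, and in the Cdh5 panel 4 of the 15-month mice lie above every 2-month mouse.

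The junction genes were measured by 1 probe set each. Cldn5, the claudin that closes the barrier, had signals of 585.8 to 1171.8 with a median of 838.15 at 15 months, against 539.6 to 963.4 with a median of 847.0 at 2 months. The log2 difference was 0.02 ± 0.11 (SE, n = 14 and 9), with an adjusted p of 0.964 in the limma test and a 95% interval of the fold of 0.863 to 1.19. The ranges overlapped widely, with 3 of 14 older mice above the highest young mouse and 8 above the young mean. Cdh5, the cadherin of endothelial adherens junctions, was at 92.0 to 288.0 with a median of 141.0 at 15 months and at 63.5 to 162.0 with a median of 97.8 at 2 months. Of the older mice 4 were above the highest young mouse and 13 of 14 above the young mean, and 4 of the 9 young mice were below the lowest older mouse. Mean signals of Cdh5 were 156 ± 52.5 at 15 months (SD, n = 14) and 106 ± 32.9 at 2 months (SD, n = 9). The limma fold on the log2(signal + 16) scale, which is not the ratio of these means, was 1.40 with a 95% interval of 1.11 to 1.76. The log2 difference of 0.48 ± 0.16 did not pass in the limma test (unadjusted p = 0.00603, adjusted p = 0.214), and the exact two-sided permutation test over all 817190 regroupings of the arrays gave an unadjusted p of 0.00877. Over the 33 alternatives in which Cdh5 was tested, the adjusted p of limma or the Mann-Whitney test lay between 0.108 and 0.384. The highest Cdh5 signal came from 15-month replicate 13.

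Pecam1, the third junction gene, had an estimate near 0. Its signals were 88.0 to 287.4 with a median of 182.7 at 15 months and 96.4 to 235.0 with a median of 185.0 at 2 months. The log2 difference was 0.01 ± 0.16 (limma adjusted p = 0.9896), and the fold had a 95% interval of 0.807 to 1.25. The lowest and the highest value both belonged to 15-month mice, replicates 14 and 13.

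The VEGF receptor genes gave differences of opposite sign, neither past the test. Flt1, the receptor that binds VEGF tightly and also exists as a soluble decoy, was at 250.9 to 463.7 with a median of 361.95 at 15 months and at 230.0 to 414.3 with a median of 344.3 at 2 months in its brighter probe set (98452_at). The log2 difference was 0.11 ± 0.11 (limma adjusted p = 0.695). The second Flt1 probe set (98453_at) varied far more between mice, from 71.5 to 478.4 at 15 months and from 35.7 to 389.2 at 2 months, with coefficients of variation of 40.9% and 48.0%. Its interval was correspondingly wide, with a fold of 1.15 and 95% bounds of 0.721 and 1.82 (limma adjusted p = 0.840), and without 2-month replicate 3, the mouse of lowest signal, the log2 difference was -0.07. Kdr, the main signalling receptor for VEGF, was at 18.9 to 129.1 with a median of 94.4 at 15 months, against 73.8 to 185.3 with a median of 106.0 at 2 months. Its log2 difference was -0.27 ± 0.19 (limma adjusted p = 0.585), with 4 of 14 older mice above the young mean. The lowest Kdr signal, 18.9, was that of 15-month replicate 1, without which the log2 difference was -0.16.

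Both angiopoietin receptor genes had estimates below 0. Tek, the receptor itself, was at 40.8 to 126.6 with a median of 105.3 at 15 months and at 83.8 to 127.8 with a median of 104.6 at 2 months. The medians differed little, while 4 older mice lay below all young mice, and the coefficient of variation was 28.8% at 15 months and 14.0% at 2 months, a difference in spread that was not tested. The log2 difference of Tek was -0.14 ± 0.15 (limma adjusted p = 0.729). Tie1 was at 56.3 to 123.0 with a median of 94.65 at 15 months, against 68.3 to 196.6 with a median of 113.5 at 2 months, in a probe set (161184_f_at) that, by its _f suffix, may also bind transcripts of similar genes. Of the young mice 4 were above every older mouse, and 2 of 14 older mice were above the young mean. The fold was 0.815 with a 95% interval of 0.659 to 1.01, and the log2 difference of -0.30 ± 0.15 did not pass (limma adjusted p = 0.421; exact two-sided permutation p = 0.0591, unadjusted). The other Tie1 probe set (99936_at) fell below the signal filter. Its signals were 19.3 to 179.0 with a median of 80.85 at 15 months and 51.0 to 164.3 with a median of 126.9 at 2 months. Tested without the filter it had a log2 difference of -0.41 ± 0.25 (limma adjusted p = 0.629), so both Tie1 probe sets had the same sign and neither passed. Over the 23 mice, centred on age, the 2 probe sets of Flt1 had an r of 0.48 (rho = 0.36; permutation p = 0.0263 and 0.102, adjusted over the 2 genes 0.0525 and 0.204), which was 0.06 without the 2 mice farthest from the median. Those of Tie1 had an r of 0.20 (rho = 0.27, permutation p = 0.336 and 0.22), which was 0.003 without the 2 mice farthest from the median.

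The remaining members are a co-receptor, a transporter and a membrane protein. Eng was at 752.4 to 1285.7 with a median of 1087.65 at 15 months and at 748.8 to 1236.6 with a median of 961.2 at 2 months. It had mean signals of 1067 ± 152 at 15 months (SD, n = 14) and 953 ± 160 at 2 months (SD, n = 9) and a limma fold of 1.12 with a 95% interval of 0.986 to 1.28 (limma adjusted p = 0.462). Although 12 of 14 older mice were above the young mean, only 2 were above the highest young mouse. Abcb1a was at 93.3 to 229.7 with a median of 149.45 at 15 months and at 82.7 to 173.4 with a median of 152.7 at 2 months, with a log2 difference of 0.08 ± 0.14 (limma adjusted p = 0.842). Of the older mice 4 exceeded all young mice while the medians were close. Abcb1b, a close relative of Abcb1a, was below the signal filter, and whether the Abcb1a probes also bind its RNA was not tested. Itm2a was at 363.3 to 666.9 with a median of 551.35 at 15 months and at 454.6 to 697.6 with a median of 603.3 at 2 months. Its log2 difference was -0.13 ± 0.09 (limma adjusted p = 0.551) with a 95% interval of the fold of 0.80 to 1.04. Of the older mice 3 lay below every young mouse, and none lay above the highest.

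**Figure D2:**
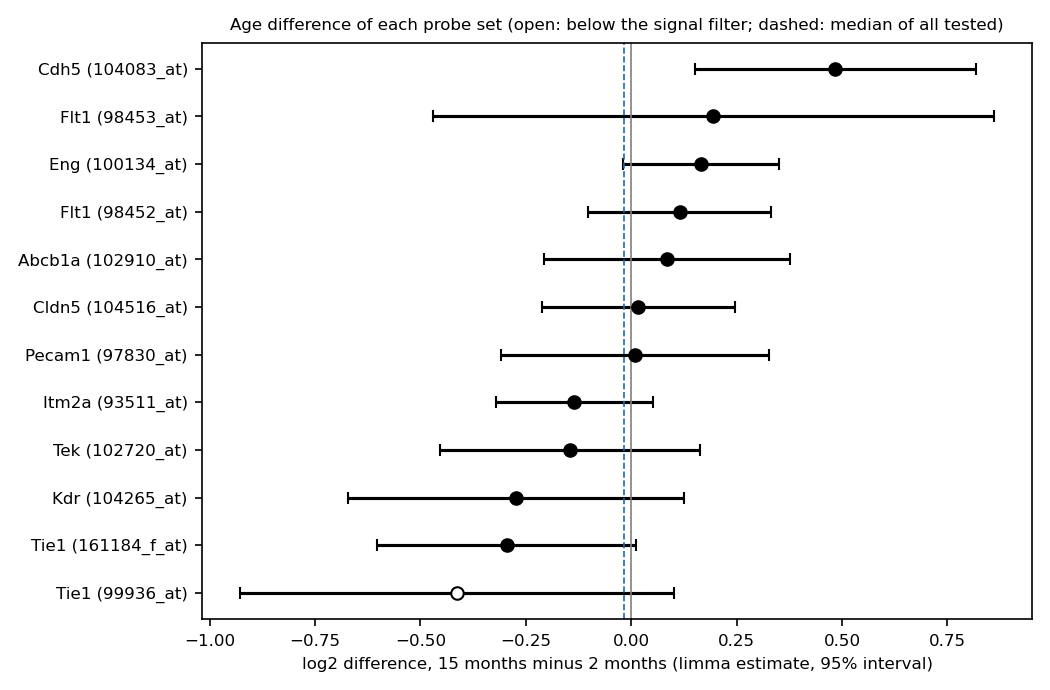
Points are limma log2 differences, 15 months minus 2 months, with 95% intervals for the 12 endothelial probe sets, sorted by size, and the dashed line marks the median of all tested probe sets at -0.02. The interval of Cdh5 lies above 0, those of the other 11 include 0, and none passes at an adjusted p of 0.05.

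Between mice of the same age the endothelial genes varied together only loosely. For each gene the brightest probe set was centred on the mean of its age, and the 45 pairs of genes were compared over the 23 mice. The median Pearson r of these pairs was 0.16, against 0.00 for all 16128360 pairs of the 5680 tested genes, and 36 of the 45 pairs (80%) were above 0, against 50.04% of all pairs. Much of the median came from 15-month replicate 1, without which it was 0.04 and 29 pairs were above 0. This mouse was below the mean of its age in 9 of the 10 genes, Pecam1 being the exception. By the count of genes above the mean of its age the highest mouse was 2-month replicate 7, with 10 of 10. By the mean deviation over the genes, rescaled to unit SD over the 23 mice, it was 15-month replicate 13 (1.20, against 1.15 for 2-month replicate 7).

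**Figure D3:**
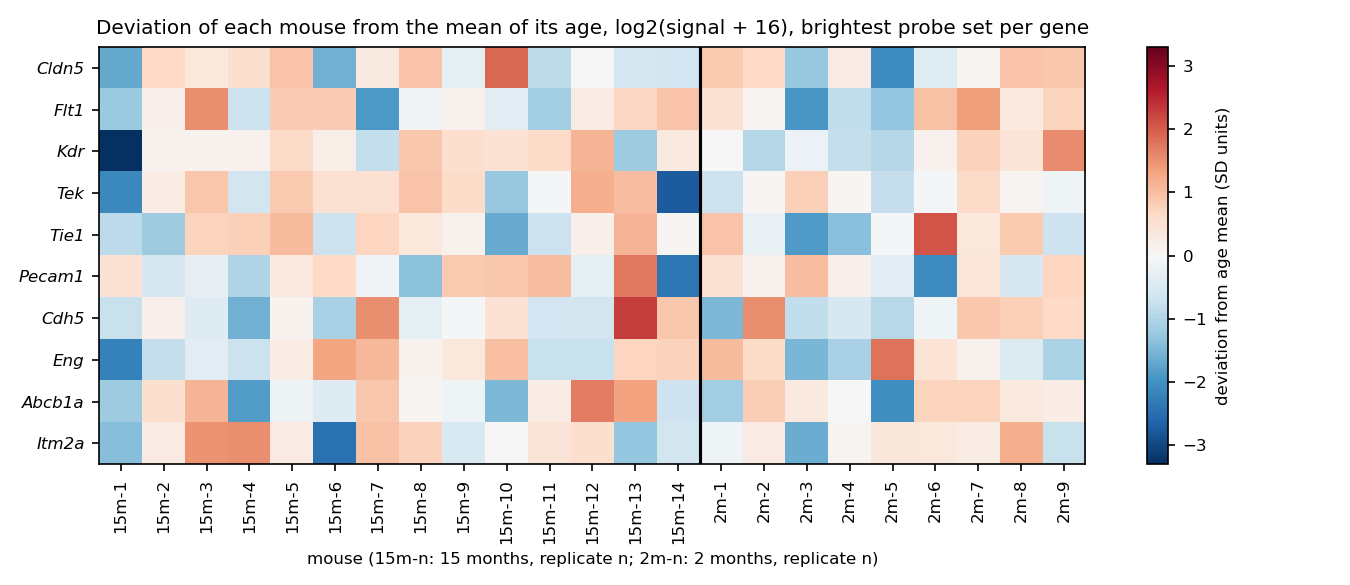
Colours show how far each mouse (columns, 15 months left of the black line, 2 months right of it) lay from the mean of its age in each of the 10 genes (rows), in SD units of log2(signal + 16). In 15-month replicate 1 all genes but Pecam1 are blue, and in 2-month replicate 7 all are red or near white.

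A single pair passed after adjustment over the 45 pairs. Tek and Abcb1a, the angiopoietin receptor and the efflux pump, had a Pearson r of 0.68 (permutation p = 0.00047, adjusted p = 0.02115) and a Spearman rho of 0.71 (permutation p = 0.00052, adjusted p = 0.0234). The r was 0.70 within the 14 mice of 15 months and 0.77 within the 9 mice of 2 months, and 0.76 without the 2 mice farthest from the median of Tek. The 4 older mice of lowest Tek, replicates 14, 1, 10 and 4, at 40.8, 49.5, 64.3 and 77.5, had Abcb1a signals of 126.2, 111.2, 102.7 and 93.3, all below the 15-month median of Abcb1a. The pair kept an adjusted p of 0.0054 to 0.0493 when each array was left out in turn. Of the other pairs, Cldn5 with Itm2a (r = 0.53, rho = 0.38) and Cdh5 with Abcb1a (r = 0.51, rho = 0.52) had the highest r, with permutation p of 0.0107 and 0.0156 for r, 0.0849 and 0.0133 for rho, and adjusted p of 0.218 for both r, which did not pass.

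Pecam1 was mostly below 0 in its correlations. Of its 9 pairs 6 were below 0, with a median r of -0.10, while 33 of the 36 pairs without Pecam1 were above 0. Eng came next, with 3 of its 9 pairs below 0 and a median r of 0.03. These counts include 15-month replicate 1, low in all genes but Pecam1, and are not given without it. The lowest r of Pecam1 was with Itm2a, at -0.45 (rho = -0.60, permutation p = 0.0389 and 0.00418, adjusted p = 0.218 and 0.0940). Whether Pecam1 differs from the other members was not tested. Platelets and leukocytes also express Pecam1. Of 15 genes on a list of leukocyte and platelet markers only 3, Camp, Cd52 and Cd79a, passed the signal filter. The part of such cells in the Pecam1 signal was not tested.

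**Figure D4:**
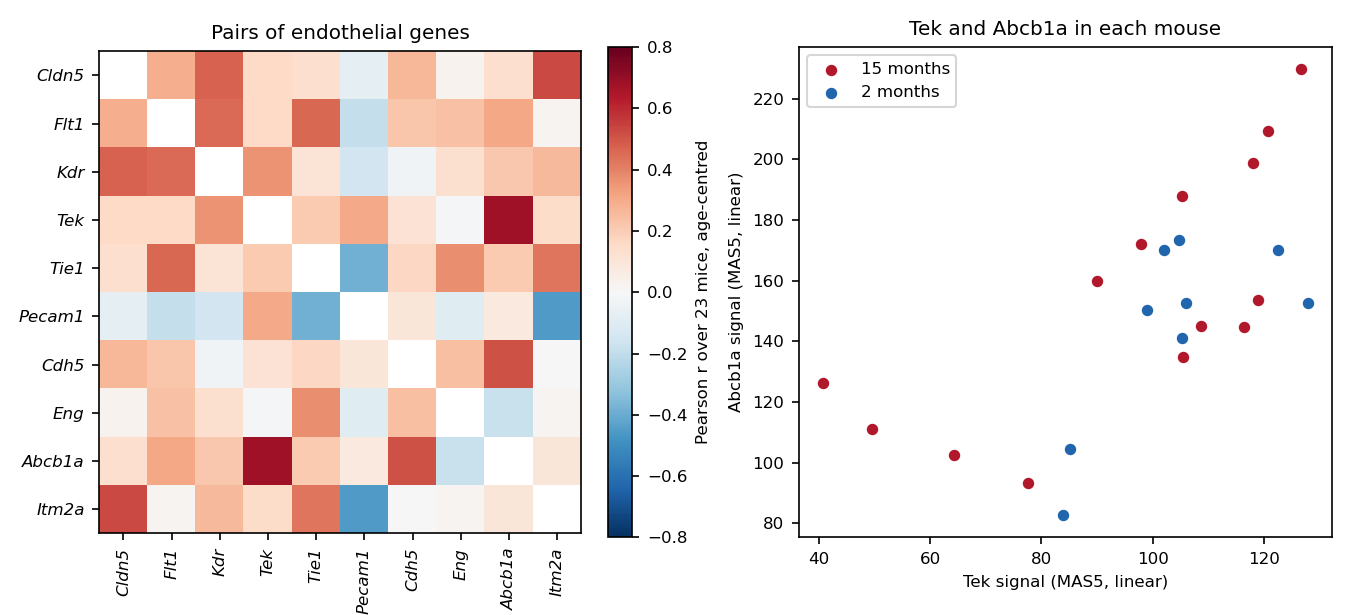
Left, Pearson r of each pair of the 10 genes over 23 mice after centring on the mean of each age; right, the MAS5 signals of Tek and Abcb1a in each mouse, 15 months in red and 2 months in blue. The square of Tek with Abcb1a is the darkest at 0.68, most others are pale red, and the row of Pecam1 is mostly blue.

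RefSeq promoter windows (GRCm38.p6), which run from 250 bases before to 50 after the gene's start, were found for 8 of the 10 genes. The letters GGAAG, the core recognised by ETS factors, AACAAT, recognised by SOX factors, and GATAAG, recognised by GATA factors, were searched on both strands, so that the reverse complements, written CTTCC for ETS, ATTGTT for SOX and CTTATC for GATA, also counted. GGAAG occurred in 6 of the 8 windows, against 71.4% of 32851 windows of all genes, AACAAT in 1, against 10.7%, and GATAAG in 2, against 7.4%. The windows are shown for Tek and Abcb1a, the pair that varied together, and for Tie1, the partner of Tek, with these letters in capitals. They lie at chr4:94739039-94739338 on the plus strand, chr5:8566841-8567140 on the plus strand and chr4:118489800-118490099 on the minus strand.
Tek: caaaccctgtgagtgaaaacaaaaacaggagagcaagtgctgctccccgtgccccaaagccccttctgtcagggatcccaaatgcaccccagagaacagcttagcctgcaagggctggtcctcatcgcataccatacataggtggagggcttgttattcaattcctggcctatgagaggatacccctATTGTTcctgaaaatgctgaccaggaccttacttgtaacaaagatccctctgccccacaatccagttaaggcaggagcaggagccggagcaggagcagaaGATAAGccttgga
Abcb1a: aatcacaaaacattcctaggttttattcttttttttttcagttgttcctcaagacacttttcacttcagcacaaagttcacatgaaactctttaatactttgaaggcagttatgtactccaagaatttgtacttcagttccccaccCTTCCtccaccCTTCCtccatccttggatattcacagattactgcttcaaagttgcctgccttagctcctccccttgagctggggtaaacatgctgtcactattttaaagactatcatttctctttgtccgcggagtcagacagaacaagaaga
Tie1: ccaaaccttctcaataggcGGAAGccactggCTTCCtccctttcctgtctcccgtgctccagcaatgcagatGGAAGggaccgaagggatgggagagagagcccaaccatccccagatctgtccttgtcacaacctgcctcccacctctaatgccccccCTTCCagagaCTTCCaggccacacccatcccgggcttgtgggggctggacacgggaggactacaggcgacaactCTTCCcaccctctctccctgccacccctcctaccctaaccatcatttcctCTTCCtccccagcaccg
The Tie1 window held 7 copies of GGAAG or its complement, that of Abcb1a 2 and that of Tek none, and the Tek window held ATTGTT from position -63 and GATAAG from position 37, counted from the gene's start. None of these matches overlapped another. The pair that varied together thus shared none of these letters in these windows, and a match is of letters only, not a site.

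The genes whose deviations from the age mean were most like the mean deviation of the 10 members, by Pearson r over the 23 mice among 5670 other tested genes, were Zic1 (r = 0.80), Tmod3 (0.80), Thbd (0.76), Lama4 (0.76), Lcp1 (0.74), Acta2 (0.73), Ptgds (0.73), Pygm (0.72), Cp (0.72) and Slc6a20b (0.72). They were chosen for this r, so it is a description with no p. The order rests largely on 15-month replicate 1, without which 2 of the 10 were still among the 10 highest and r was 0.53 to 0.73. By their _f suffix the probe sets of Tmod3, Thbd and Ptgds may also bind transcripts of similar genes. None of the 10 passed the age comparison. Of these genes Thbd (thrombomodulin, an anticoagulant of the vessel lining) is on the list of other endothelial genes, Acta2 (smooth muscle actin) on that of pericytes and smooth muscle, and Ptgds and Cp on that of meninges and fibroblasts. The mean log2 value of the meningeal list ranged from 8.30 to 9.74 at 15 months and from 8.41 to 9.44 at 2 months, and its part in these correlations was not tested.

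The 32 other endothelial genes that were tested had a median r of 0.27 with the members' mean, against 0.01 for all other genes, with the highest for Thbd, Cav1 of caveolae (0.72), Ahnak (0.70), Vwf, the von Willebrand factor (0.65), Vcam1 (0.65) and Sox17 (0.63), which were picked for this r. Without 15-month replicate 1 the r of these 6 genes was 0.43 to 0.64, the lowest being 0.43 for Vwf and 0.45 for Sox17. Slc2a1, the glucose transporter of the barrier, had an r of -0.04 over the 23 mice. It was -0.33 in the 15-month mice alone and 0.57 in the 2-month mice alone, a difference that was not tested.

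Between the ages 1 of these 32 genes rose and none fell in limma, where 0.335% of all tested probe sets were called higher and 0.0403% lower. It was Slc2a1, at 958 ± 222 (SD, n = 14) at 15 months and 643 ± 121 (SD, n = 9) at 2 months, with a log2 difference of 0.55 ± 0.12 (limma adjusted p = 0.0220) and 14 of 14 older mice above the young mean. Whether Slc2a1 differs from the members was not tested. At an unadjusted p under 0.05 in limma 4 of the 32 were higher, Slc2a1 among them, and 1 was lower. The shares of all tested probe sets were 5.89% higher and 6.51% lower. The median of the 32 was -0.01, with 14 above and 18 below 0, where 45.0% of all tested probe sets were above 0 and their median was -0.02.

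In the pathways around the members few genes passed the test. The counts below stand against 0.335% of all tested probe sets called higher and 0.0403% lower, and, at an unadjusted p under 0.05, 5.89% higher and 6.51% lower. None of the 5 tested ligand genes passed in limma, nor at an unadjusted p under 0.05, and their median log2 difference was 0.01. They were genes of the VEGF family, Apln and an angiopoietin-like gene, with no angiopoietin among them. Vegfa, the principal ligand of Kdr and Flt1, was at 157 ± 24.8 at 15 months and 177 ± 37.3 at 2 months (SD, n = 14 and 9; log2 difference -0.15 ± 0.11, limma adjusted p = 0.594). Vegfb, a ligand of Flt1, was at 980 ± 67.5 at 15 months and 947 ± 137 at 2 months (limma adjusted p = 0.754). Apln, the ligand of the apelin receptor, was at 404 ± 57.5 at 15 months and 450 ± 103 at 2 months (limma adjusted p = 0.612). The Tek ligands Angpt1 and Angpt2 and the lymphatic growth factor Vegfc were below the signal filter in both ages and were not tested. Of 16 co-receptors, regulators and effectors none passed in limma, nor at an unadjusted p under 0.05, and the median was 0.01. Among them the hypoxia factor Hif1a, the kinase Src and the Hif1a partner Arnt had log2 differences of 0.07, -0.27 and -0.17 (limma adjusted p 0.551, 0.618 and 0.636). The Hif1a probe set, by its _f suffix, may also bind transcripts of similar genes.

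Among 13 ligands, receptors and signal carriers of the transforming growth factor beta family, in which endoglin acts, 1 rose and none fell in limma. It was Smad1, which carries bone morphogenetic protein signals to the nucleus, at 949 ± 141 at 15 months and 699 ± 147 at 2 months (SD, n = 14 and 9; log2 difference 0.45 ± 0.10, limma adjusted p = 0.0288). At an unadjusted p under 0.05 in limma 2 were higher, Smad1 among them, and 2 were lower, and the median of the list was 0.04. None of 18 junction partners passed in limma, with 1 higher and 1 lower at an unadjusted p under 0.05, and 13 of them had estimates below 0, with a median of -0.04. Ctnnd1 (p120 catenin, which binds cadherins such as VE-cadherin) had the lowest p, with 1536 ± 209 at 15 months and 1772 ± 280 at 2 months (log2 difference -0.20 ± 0.08, limma adjusted p = 0.329), followed by the actin crosslinker Actn4 (0.19 ± 0.08, limma adjusted p = 0.35) and the scaffold Mpdz (-0.17 ± 0.10, limma adjusted p = 0.514).

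Of 18 other ABC transporter genes none passed in limma, with 1 higher and 1 lower at an unadjusted p under 0.05 and a median of -0.03. The members of lowest p were Abca1, a cholesterol exporter, at 388 ± 50.7 at 15 months and 314 ± 50.2 at 2 months (log2 difference 0.30 ± 0.09, limma adjusted p = 0.145), Abcf1 (-0.15 ± 0.06, limma adjusted p = 0.282) and Abcd2, a peroxisomal fatty acid transporter (-0.32 ± 0.17, limma adjusted p = 0.439). None of 18 genes of the Wnt pathway, which maintains the barrier, passed in limma, with 2 lower at an unadjusted p under 0.05, and 14 of them had estimates below 0 with a median of -0.05, where 45.0% of all tested probe sets were above 0. Apcdd1 and Axin2, both induced by Wnt signals, and the ligand Wnt7b had log2 differences of -0.38 ± 0.14, -0.31 ± 0.15 and -0.21 ± 0.12 (limma adjusted p 0.25, 0.378 and 0.493). Of 7 Notch pathway genes none passed in limma, 3 were lower at an unadjusted p under 0.05 (6.51% of all tested probe sets), and the median was -0.13 (-0.02 over all). Notch1 was at 398 ± 110 at 15 months and 545 ± 119 at 2 months (log2 difference -0.48 ± 0.18, limma adjusted p = 0.258). Hey1, a Notch target, had a log2 difference of -0.20 ± 0.07 and Notch3, a receptor of mural cells, one of -0.22 ± 0.10 (limma adjusted p 0.282 and 0.371).

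**Figure D5:**
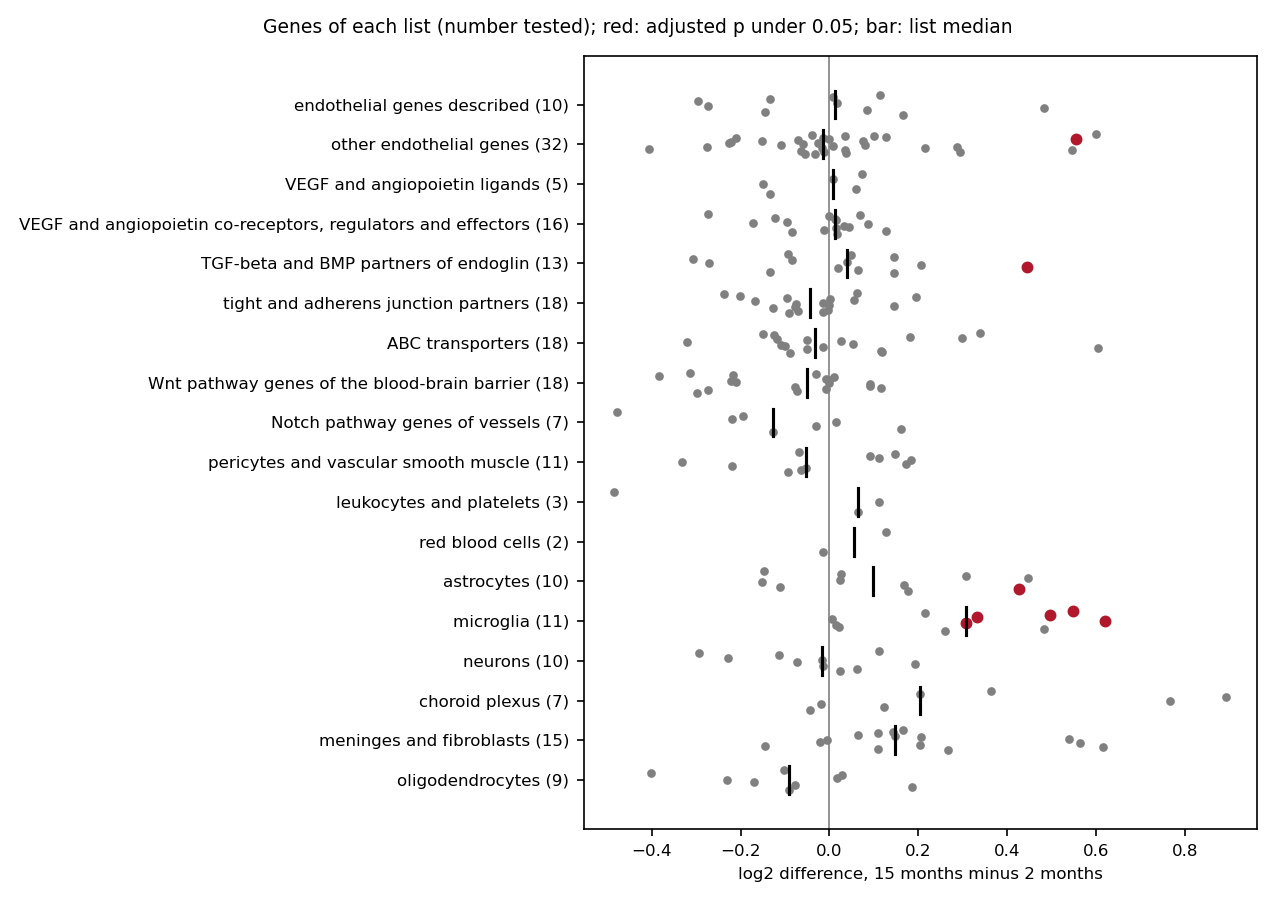
Each point is the limma log2 difference, 15 months minus 2 months, of 1 gene by its brightest probe set, for each list, with the list median as a black bar and genes of adjusted p under 0.05 in red. The 10 endothelial genes sit around 0 with none in red, and the microglia list has 5 of 11 in red.

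Markers of other cells near the vessels gave the following values. None of 11 pericyte and smooth muscle genes passed in limma (median -0.05; 2 lower at an unadjusted p under 0.05), and their list mean ranged from 7.61 to 8.36 at 15 months and from 7.78 to 8.31 at 2 months on the log2 scale. The defining pericyte gene Pdgfrb was at a mean signal of 100.5 at 15 months and 104.5 at 2 months. The smooth muscle actins Actg2 and Acta2 had log2 differences of -0.33 and 0.17 (limma adjusted p 0.25 and 0.664). By its _f suffix the Actg2 probe set may also bind transcripts of similar genes. The red cell genes Hba-a1 and Hbb-b2 did not pass, with log2 differences of 0.13 and -0.02.

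Of 11 microglia markers 5 rose and of 10 astrocyte markers 1 rose, against 0.335% of all tested probe sets. The microglial genes were Ctss, a lysosomal protease (log2 difference 0.50 ± 0.06), Ly86 (0.62 ± 0.11), Mpeg1 (0.55 ± 0.10) and the complement genes C1qb (0.33 ± 0.06) and C1qc (0.31 ± 0.07), with limma adjusted p of at most 0.0223. The astrocyte gene was S100b, a calcium-binding protein (0.43 ± 0.09, limma adjusted p = 0.0128). None of 10 neuron, 7 choroid plexus, 15 meningeal or 9 oligodendrocyte markers passed in limma. At an unadjusted p under 0.05 there were 3 higher meningeal and 2 lower oligodendrocyte markers and no neuron or choroid plexus marker. Among neuron markers the lowest p were those of Stmn2, Camk2a and Map2, with log2 differences of -0.11, -0.23 and -0.29 (limma adjusted p 0.413, 0.497 and 0.515). For the choroid plexus they were those of Folr1, Igf2 and Ttr, with 0.77, 0.36 and 0.89 (limma adjusted p 0.506, 0.594 and 0.729). For the meninges they were those of Bmp6, Cp and Mgp, with 0.62, 0.56 and 0.54 (limma adjusted p 0.244, 0.282 and 0.354). For oligodendrocytes they were those of Mog, Ugt8a and Mobp, with -0.23, -0.40 and 0.19 (limma adjusted p 0.305, 0.372 and 0.529). The leukocyte markers Camp, Cd52 and Cd79a had log2 differences of -0.48, 0.11 and 0.06 (limma adjusted p 0.247, 0.763 and 0.947). The mean of the 7 choroid plexus genes spanned 7.56 to 10.3 at 15 months and 7.59 to 10.2 at 2 months, and with it in the model none of the members passed.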

How the data were processed

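RNA was isolated with TRIzol and hybridised after biotin labelling, per the labels' protocols. The authors deposited linear intensities, 1 MAS5 signal for each probe set on each array (the tool is named in the submitters' processing notes, without version or settings). Trimming 2% at each end left a mean of 499.9 to 500.8 on every array, and no further scaling was applied. Detection calls were not used here. Precision is limited by the number of arrays. Mice are biological replicates per the labels, which name no batch and no pairs; replicate numbers only name mice.

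Gene names are those of the array's annotation, in which of 12422 probe sets that are no controls 10833 had 1 symbol, 396 several and 1193 none, and none was named from several. Those whose mean log2(signal + 16) was above the 40th percentile were tested, 15 months minus 2 months, with limma 3.58.1 in R 4.3.3 (lmFit, eBayes with trend and robust variance; Benjamini-Hochberg over 7453 probe sets). Fold changes are on that scale and understate those of dim genes. A gene stands for its brightest tested probe set unless a probe set is named. Correlations used values centred on the mean of each age, 100000 shuffles within the ages, and Benjamini-Hochberg adjustment over 45 pairs. Python 3.11.15, numpy 2.4.6, scipy 1.17.1, pandas 2.3.3 and matplotlib 3.10.9 were used. The fit was first checked on simulated signals with known shifts.

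Named genes were all members, the genes of each list that passed or else up to 3 of lowest p, the 10 most like the members, and Slc2a1. Angpt1, Angpt2, Vegfc, Abcb1b and Pdgfrb were named for their role and fall outside this rule, as do the endothelial genes picked for their r. The members and lists were chosen with earlier results of these data known; a few genes belong to several lists. The promoter search was added after the data were seen. Alternatives were other pseudocounts, filters, normalisation, tests and covariates, and leaving out arrays.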

Additional observations from a re-analysis of the deposited data

Results flagged for a closer look

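Pecam1 in 2-month replicate 6 had a signal of 96.4, the lowest of the 9 young mice, and its gap to the next mouse, 0.494 of the group's range on the log2 scale, was just beyond the limit for 9 values. Chance alone flags about 1 in 20 groups. Without this mouse the log2 difference of Pecam1 was -0.09 (limma adjusted p = 0.839). The same mouse had the highest Tie1 signals of the young mice, 196.6 and 164.3 in the 2 probe sets, and the cause was not tested.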

How the results depend on the processing

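None of the 11 tested probe sets passed at an adjusted p of 0.05 in any of the 34 alternatives (23 without 1 array each and 11 others), the lowest being 0.108 for Cdh5. Log2 differences of Flt1 (98452_at), Kdr, Tek, Tie1, Cdh5, Eng, Abcb1a and Itm2a kept their sign wherever they were tested. Some moved by over 1.5 times when 1 array was left out: Abcb1a, at 0.0838 with all arrays, was at 5.87e-05 and 0.0361 when 2-month replicate 5 or 1 was omitted, at 0.0406, 0.0502 and 0.0554 when 15-month replicate 12, 13 or 3 was, and at 0.13 when 15-month replicate 4 was. Flt1 (98452_at) was at 0.0557 and 0.0754 with 2-month replicate 3 or 5 omitted, Kdr at -0.16 with 15-month replicate 1 omitted, and Tek at -0.0895 and -0.0737 with 15-month replicate 1 or 14 omitted. Other settings did so for Abcb1a (0.131 with the 25th percentile covariate, 0.0298 with the choroid plexus covariate), Flt1 (0.0426 without the 2 farthest arrays), and Kdr and Tek (-0.18 and -0.0913 with a pseudocount of 64). Cldn5, near 0, was at -0.00744 with the 25th percentile covariate, -0.0187 with the choroid plexus covariate and -0.0146 without the 2 farthest arrays, and at -0.0534 to 0.0527 when an array was left out. Pecam1 was at -0.0115 with the choroid plexus covariate and at -0.0882 to 0.0774 without 1 array, and Flt1 (98453_at) at -0.0744 to 0.317 without 1 array. This Flt1 probe set, at 0.195 with all arrays, was at 0.0655 with the 25th percentile covariate. It was at 0.0352 without the 2 farthest arrays and at 0.321 without the 4 arrays of lowest 99th percentile. The count at an unadjusted p under 0.05 was 0 higher with the 60th-percentile filter, which leaves Cdh5 untested, and 1 to 2 higher without 1 array, the second being Eng. Lower counts were 1, for Tie1, with the choroid plexus covariate, with eBayes without trend and robust variance and without the 2 farthest arrays, and 0 to 1 without 1 array. The second Tie1 probe set was tested only without the filter. The median r of the pairs was 0.20 with the 25th percentile removed and 0.04 to 0.20 without 1 array, with 1 to 2 pairs past 0.05, the 2 being without 2-month replicate 5. Of the 10 genes most like the members 4 were also among the 10 highest in 15-month mice alone, 1 in 2-month mice alone and 2 without 15-month replicate 1, the last added after the data were seen. Dim probe sets such as those of Kdr, Tek and Tie1 leave wide intervals. No paired analysis was possible because the labels pair no mice.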
